A study of Mus musculus with 16 samples.

Results

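This account covers the glutathione peroxidase genes Gpx1, Gpx2, Gpx3, Gpx4 and Gpx7, the glutathione transferase genes Gstm1, Gstm2 and Gsta4, and Gclm, which encodes the modifier subunit of glutamate-cysteine ligase, in mouse embryonic stem cells (ESCs). These 9 genes were taken by name. Of them, 8 of them had a probe set that carried a single gene symbol, out of 30102 such genes in all. The probe set of Gclm carried a second symbol (Gm6061), so no value of Gclm was used. Each of the 8 measured genes had 1 probe set and exceeded the limit used for testing, the array's 40th percentile, on 16 of 16 arrays. The family was chosen by name with the log2 signals of these same arrays, and their differences between lines and conditions, in view, so the adjusted p-values place a gene among all genes tested and are not independent support.

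The 16 Affymetrix arrays hold 8 ESC lines in 2 conditions, with 1 array for each: in medium with leukaemia inhibitory factor (LIF), the cytokine that maintains mouse ESC self-renewal, or 12 days after LIF was withdrawn. All lines are male and of strain 129SV. EBRTcH3 is the wild type. The other 7 lines lack the endogenous MBD3 isoforms a, b and c, subunits of NuRD, a complex that remodels nucleosomes and deacetylates histones, and carry a stable vector. That vector encodes MBD3a, MBD3b, MBD3c, MBD3a lacking the methyl-CpG-binding domain (MBD-deleted), MBD3a lacking the coiled coil (coiled-coil-deleted), MBD3a lacking both (doubly deleted), or no MBD3 (empty vector). The coiled coil is lacking in 3 lines (empty vector, coiled-coil-deleted and doubly deleted), here called the lacking lines, and retained in the other 5, called the retaining lines. No second culture of a line is labelled, so the lines are the replicates, and p-values measure the spread between lines.

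Glutathione is the main small thiol of the cell. Glutathione peroxidases use it to reduce hydrogen peroxide and lipid peroxides, and some of them, GPX1 to GPX4 in the mouse, carry selenocysteine in the active site. Glutathione transferases couple it to electrophiles such as products of lipid peroxidation, and many of their genes lie in clusters of close relatives. Glutamate-cysteine ligase catalyses the rate-limiting step of glutathione synthesis, and several genes of the pathway are known targets of the transcription factor NRF2.

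Signals are on the log2 scale as deposited, where a difference of 1 is a doubling. Array medians were 4.72 to 4.85. The log2 signal of Mbd3 was 7.00 with LIF and 7.45 without in the empty vector line, and 8.45 to 9.59 on the arrays of the other lines; the exons under its probe set are not named in the labels. The ESC markers Pou5f1 (11.93 to 12.56), Sox2 (10.12 to 11.52) and Nanog (10.28 to 11.89) were well above background on every array. Array titles are numbered 1 to 10 for EBRTcH3, MBD3a, MBD3b, MBD3c and the empty vector line, and 15 to 20 for the other 3 lines. What the numbers stand for is not stated, and they are called title runs below. The empty vector line is the only lacking line of titles 1 to 10, and MBD-deleted the only retaining line of titles 15 to 20. A class difference within a title run thus rests on a single line of the smaller class, and class and title run are largely confounded. In bulk RNA, fewer cells that express a gene and less RNA per cell cannot be told apart.

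**Figure D1:**
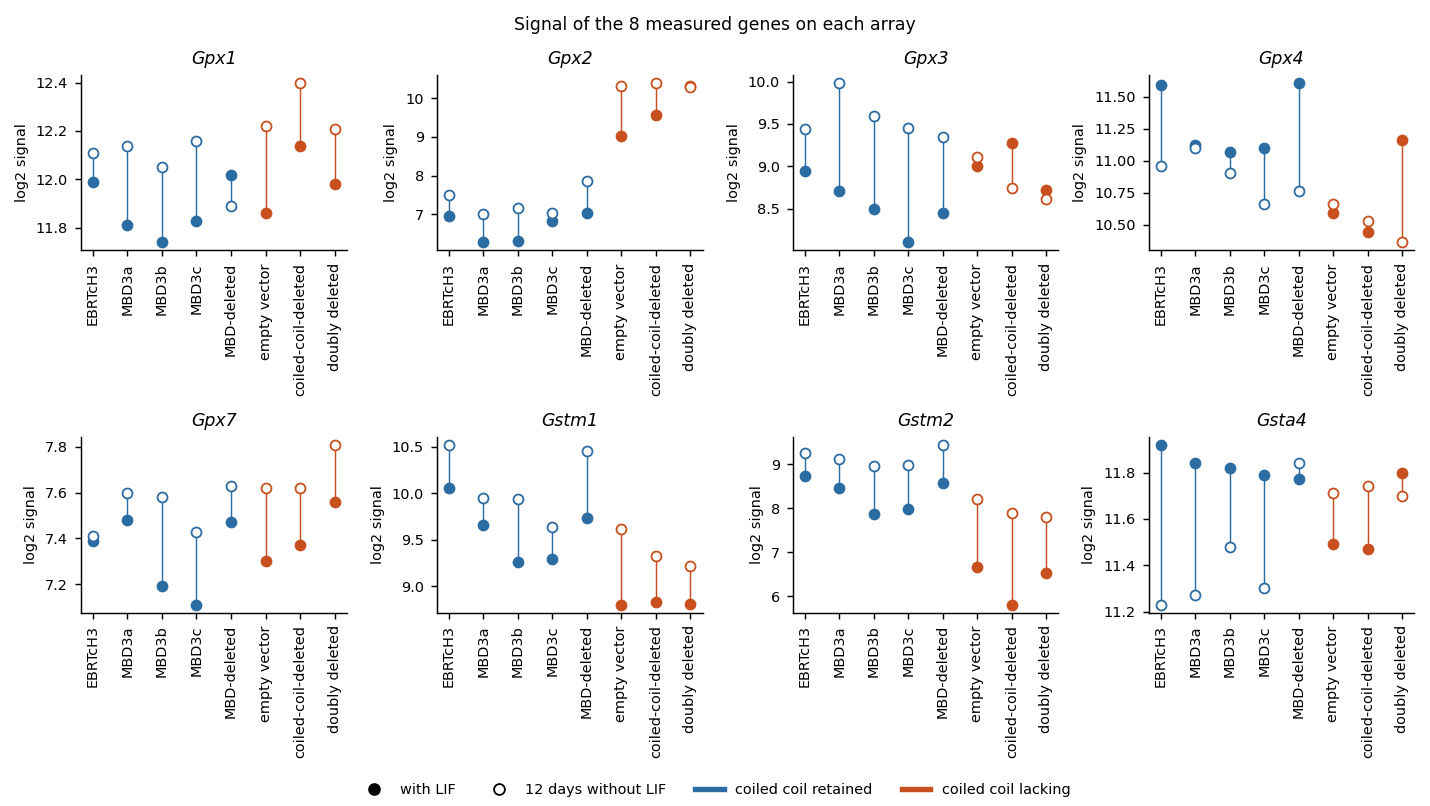
Log2 signal (y axis, a separate scale for each gene) of the 8 measured genes on each array; the x axis gives the 8 lines, filled points are arrays with LIF, open points arrays 12 days without LIF, blue lines retain the coiled coil and orange lines lack it. Gpx2 lay between 6.28 and 7.86 in the retaining lines and between 9.03 and 10.40 in the lacking lines.

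Among the members the largest difference between the classes of line was in Gpx2, the gastrointestinal glutathione peroxidase, a selenoprotein best known from epithelium of the gut. With LIF, the log2 signal of EBRTcH3 was 6.95, that of MBD3a 6.28, of MBD3b 6.32, of MBD3c 6.82 and of MBD-deleted 7.05. Of the lacking lines, the empty vector line was at 9.03, coiled-coil-deleted at 9.57 and doubly deleted at 10.32. Each lacking line was thus above each retaining line, and the means were 6.68 ± 0.36 (SD, n = 5) and 9.64 ± 0.65 (SD, n = 3). The difference of 2.96 ± 0.27 (SE) on the log2 scale, 7.76-fold, had an adjusted p of 8.21e-05 by limma and was the 6th highest of 22872 genes tested.

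After 12 days without LIF the log2 signal of Gpx2 was 7.51 for EBRTcH3, 7.01 for MBD3a, 7.16 for MBD3b, 7.05 for MBD3c and 7.86 for MBD-deleted. The lacking lines came close together, with the empty vector line at 10.32, coiled-coil-deleted at 10.40 and doubly deleted at 10.28. The classes again did not overlap, and they differed by 3.02 ± 0.18 (SE) on the log2 scale, 8.09-fold (limma, adjusted p = 5.89e-06), the 8th highest difference of all genes tested. Within the title runs the difference was 2.44 (titles 1 to 10) and 2.90 (titles 15 to 20) with LIF, and 3.14 and 2.48 without.

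Among the constructs of MBD3a, each with 1 array per condition and hence no test, Gpx2 with LIF was 0.77 higher on the log2 scale in MBD-deleted than in MBD3a. It was 3.29 higher in coiled-coil-deleted (9.78-fold) and 4.04 higher in doubly deleted (16.4-fold). Without LIF these differences from MBD3a were 0.85, 3.39 and 3.27. MBD-deleted was the highest of the retaining lines in both conditions, and it stayed below each lacking line.

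LIF withdrawal raised Gpx2 over the 8 lines by 0.66 ± 0.13 (SE) on the log2 scale (limma with the line as a block, adjusted p = 0.00506), with higher signal in 7 of 8 lines. In the retaining lines it rose by 0.63 ± 0.16 (adjusted p = 0.00906 by limma). In the lacking lines the response was 0.69 ± 0.21 and did not pass (limma, adjusted p = 0.113); the empty vector line responded by 1.29, coiled-coil-deleted by 0.83 and doubly deleted by -0.04, the line that was already highest with LIF. Of 20 alternative settings, this response passed in 2, with array weights and without doubly deleted (limma, adjusted p = 0.016), and did not pass in 18. The responses of the classes differed by 0.06 ± 0.26 (limma, adjusted p = 0.92).

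The promoters of the members whose classes differed most are shown here so that their sequence can be set beside the values. They are RefSeq windows of build GRCm38.p6 that run from 250 bases before to 50 bases after the annotated gene start, written 5′ to 3′ on the strand of the gene with each CG pair in capitals, the pair that DNA methylation acts on. The window of Gpx2 is chr12:76795505-76795804 (minus strand) and that of Gstm2 is chr3:107986371-107986670 (minus strand).
Gpx2: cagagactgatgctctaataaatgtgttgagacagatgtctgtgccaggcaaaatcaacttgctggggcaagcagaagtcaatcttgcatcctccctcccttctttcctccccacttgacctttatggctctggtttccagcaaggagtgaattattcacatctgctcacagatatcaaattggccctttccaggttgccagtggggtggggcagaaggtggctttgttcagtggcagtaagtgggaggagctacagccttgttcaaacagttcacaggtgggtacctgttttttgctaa
Gstm2: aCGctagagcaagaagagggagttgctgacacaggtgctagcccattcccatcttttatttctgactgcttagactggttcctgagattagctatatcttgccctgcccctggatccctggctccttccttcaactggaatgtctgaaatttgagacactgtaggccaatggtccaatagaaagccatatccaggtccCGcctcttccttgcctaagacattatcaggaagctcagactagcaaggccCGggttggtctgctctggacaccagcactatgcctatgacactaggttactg
The Gpx2 window held 0 CG pairs, as did 5.43% of all 32851 windows, and the Gstm2 window held 3, a number that 31.4% of windows did not exceed. The median over all windows was 7. The antioxidant response element core TGACNNNGC, which NRF2 binds, was searched on both strands. It occurred in 1 of the 8 members with a window, which are those other than Gsta4, and in 12.4% of all windows. The first count is by gene, over all windows of a member (4 for Gpx4, 2 for Gstm1), and the second is by window. The member with a match was Gclm, whose window did not lie at the start listed for the gene, and of which no array value was used. The core thus occurred in 0 of the 7 measured members with a window.

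Gpx3 encodes the secreted peroxidase of plasma, and it stood out by its response to LIF withdrawal. When LIF was withdrawn, its log2 signal went from 8.94 to 9.44 in EBRTcH3, 8.71 to 9.99 in MBD3a, 8.50 to 9.60 in MBD3b, 8.10 to 9.45 in MBD3c and 8.45 to 9.35 in MBD-deleted. Of the lacking lines, the empty vector line went from 9.00 to 9.11, coiled-coil-deleted from 9.27 to 8.74 and doubly deleted from 8.72 to 8.61. The signal was higher without LIF in each of the 5 retaining lines, and the responses of the classes did not overlap.

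The rise of Gpx3 in the retaining lines was 1.03 ± 0.13 (SE) on the log2 scale, 2.04-fold (limma, adjusted p = 0.000104). The response of the lacking lines was -0.18 ± 0.17 (limma, adjusted p = 0.705), and the difference between the responses, -1.20 ± 0.21, passed (limma, adjusted p = 0.00453). With LIF the lacking lines differed by 0.46 ± 0.18 and did not pass (limma, adjusted p = 0.126). Without LIF they were lower by 0.75 on the log2 scale, a difference of -0.75 ± 0.16 or 1.68-fold (limma, adjusted p = 0.00827), and each lay below each retaining line. Within the title runs the difference of responses was -0.95 and -1.22, and the difference without LIF was -0.51 and -0.68.

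Marker lists of cell types are set beside these values. The mean log2 signal of 9 measured trophoblast markers of 10 listed was 8.07 to 9.26 in the retaining lines without LIF and 7.49 to 7.76 in the lacking lines, against 6.34 to 6.86 and 6.63 to 7.12 with LIF. For 11 measured markers of 12 of primitive and extraembryonic endoderm, of which Afp and Cubn did not rise above the 40th percentile on enough arrays to be tested, the means without LIF were 5.85 to 6.11 and 5.69 to 5.72, against 5.60 to 5.72 and 5.64 to 5.88 with LIF. For 10 mesenchyme and fibroblast markers, with Lum and Postn not tested for the same reason, they were 6.44 to 7.00 and 6.33 to 6.40, against 6.26 to 6.36 and 6.26 to 6.47 with LIF. The single markers went both ways in the trophoblast and endoderm lists of the retaining lines, where 21.3% of all genes rose and 14.5% fell. There, 7 of 9 tested trophoblast markers rose and Tfap2c fell, and 4 of 9 tested endoderm markers rose while Gata4, Sox7 and Lama1 fell. Of 8 tested mesenchyme markers, 5 rose and 0 fell. In the lacking lines Elf5, Krt8 and Plet1 of the trophoblast list rose, Lama1 fell, and 0 of 8 mesenchyme markers passed. Only 2.93% of all genes passed there, so 0 of 8 says little of these markers. Between the classes without LIF, 4 of 9 trophoblast markers were lower in the lacking lines and Elf5 was higher. Of the endoderm markers 2 were lower and 1 higher, and of the mesenchyme markers 4 were lower and 1 higher. Of all genes 12.4% were lower and 8.55% higher. The difference of responses passed downwards for 5 trophoblast markers and upwards for Elf5 and Tfap2c, against 7.9% and 4.17% of all genes. The 9 pluripotency markers measured of 10 were at 10.69 to 11.31 in the retaining and 11.31 to 11.44 in the lacking lines without LIF, and at 11.56 to 11.79 and 11.59 to 11.78 with LIF. Of these 9, 7 fell and 1 rose in the retaining lines, and 1 fell and 0 rose in the lacking lines. The part of these cells in the values of Gpx3 and of the other members was not tested.

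The promoter window of Gpx3, chr11:54902604-54902903 (plus strand), is shown beside those above because this gene differed between the classes without LIF and in its response.
Gpx3: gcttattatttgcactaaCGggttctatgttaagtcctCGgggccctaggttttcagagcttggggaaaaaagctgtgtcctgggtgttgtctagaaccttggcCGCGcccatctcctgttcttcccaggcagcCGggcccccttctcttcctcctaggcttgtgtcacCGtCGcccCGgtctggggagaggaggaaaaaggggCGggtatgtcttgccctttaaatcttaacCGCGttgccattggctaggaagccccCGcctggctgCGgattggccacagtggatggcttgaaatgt
It held 13 CG pairs, and 37.9% of all windows held as many or more.

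The other peroxidase genes moved less. Gpx1, the cytosolic peroxidase, had a log2 signal of 11.74 to 12.14 with LIF and 11.89 to 12.40 without. It was higher without LIF in 7 of 8 lines, all but MBD-deleted (12.02 and 11.89), and rose by 0.23 ± 0.07 (SE) over the 8 lines (limma, adjusted p = 0.0346). This call was lost without any 1 of EBRTcH3, MBD3a, MBD3b, MBD3c, the empty vector line or coiled-coil-deleted, and with arrays centred on their medians (0.15, limma, adjusted p = 0.135). Without LIF the lowest lacking line lay 0.05 above the highest retaining line, and the difference of 0.21 did not pass (limma, adjusted p = 0.133), although it did with arrays centred on their medians (0.30, limma, adjusted p = 0.0304).

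Gpx4 encodes the peroxidase that reduces phospholipid hydroperoxides within membranes and protects cells from ferroptosis. With LIF its log2 signal was 11.59 (EBRTcH3), 11.12 (MBD3a), 11.07 (MBD3b), 11.10 (MBD3c) and 11.61 (MBD-deleted), and 10.59, 10.44 and 11.16 in the empty vector, coiled-coil-deleted and doubly deleted lines. Without LIF it was 10.96, 11.10, 10.90, 10.66 and 10.76 in the retaining lines in the same order, and 10.66, 10.53 and 10.36 in the lacking lines. The classes overlapped with LIF, where doubly deleted lay above MBD3a, MBD3b and MBD3c, and touched at 10.66 without it.

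Gpx4 fell in the retaining lines by 0.42 on the log2 scale, a response of -0.42 ± 0.15 (SE; limma, adjusted p = 0.0448). Without LIF it was lower in the lacking lines, a difference of -0.36 ± 0.11 (limma, adjusted p = 0.0479); with LIF the difference of -0.57 ± 0.19 did not pass (limma, adjusted p = 0.0701), although it did with arrays centred on their medians (-0.60, limma, adjusted p = 0.0413). Both calls lay close to the threshold. The fall no longer passed without EBRTcH3 (-0.37), MBD3b (-0.48), MBD3c (-0.42) or MBD-deleted (-0.32). It was also lost with no filter on low signal and with array weights. The difference without LIF no longer passed without EBRTcH3, MBD3a, MBD3b or any 1 of the lacking lines (-0.28 to -0.43). That call was also lost with the title run as a covariate, the block as a random effect, no filter on low signal, and arrays centred on their medians.

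Gpx7, a peroxidase of the endoplasmic reticulum that carries cysteine in place of selenocysteine, had a log2 signal of 7.11 to 7.56 with LIF and 7.41 to 7.81 without. It was higher without LIF in 8 of 8 lines, by 0.02 in EBRTcH3 to 0.39 in MBD3b, and rose by 0.23 ± 0.06 (SE) over the 8 lines (limma, adjusted p = 0.0209). The call was lost without MBD3b (0.21, limma, adjusted p = 0.0553), without MBD3c (0.22, limma, adjusted p = 0.0614) and with arrays centred on their medians (0.15, limma, adjusted p = 0.102). The classes overlapped in both conditions.

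**Figure D2:**
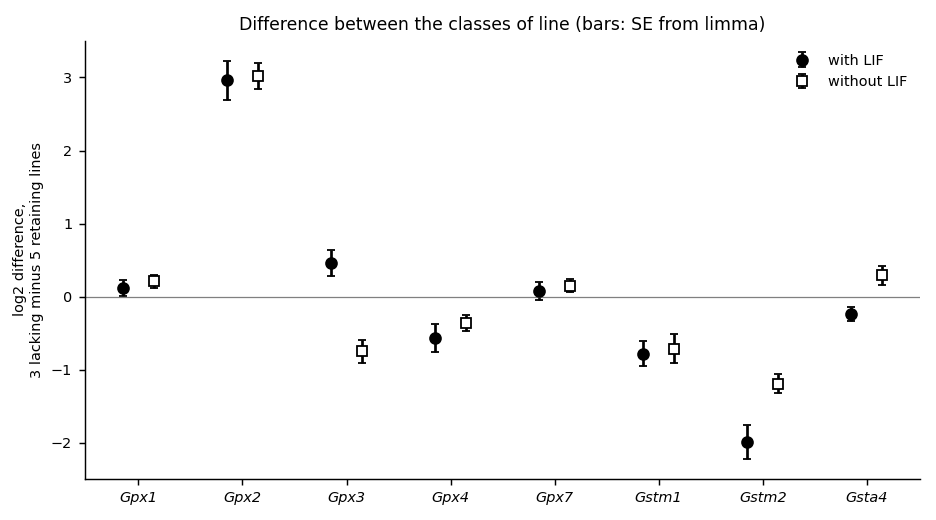
Log2 difference between the 3 lines lacking and the 5 retaining the coiled coil (y axis) for each measured gene (x axis), with LIF (filled circles) and without (open squares); bars are the SE from limma. Gpx2 is at 2.96 and 3.02, Gstm2 at -1.99 and -1.19, and Gpx3 lies above 0 with LIF and below 0 without.

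Gstm2 and Gstm1, glutathione transferase genes of the mu class, were lower in the lacking lines in both conditions, where Gpx2 was higher. With LIF, the log2 signal of Gstm2 was 8.73 (EBRTcH3), 8.46 (MBD3a), 7.86 (MBD3b), 7.99 (MBD3c) and 8.57 (MBD-deleted), against 6.67 (empty vector), 5.81 (coiled-coil-deleted) and 6.52 (doubly deleted). Without LIF it was 9.26, 9.12, 8.95, 8.99 and 9.44 in the retaining lines in the same order and 8.20, 7.88 and 7.81 in the lacking lines. Each lacking line was below each retaining line in both conditions, and each line had more signal without LIF.

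With LIF, Gstm2 was 3.97-fold lower in the lacking lines, a log2 difference of -1.99 ± 0.23 (SE; limma, adjusted p = 0.000376) and the 20th lowest of 22872 genes. Without LIF it was 2.28-fold lower, a difference of -1.19 ± 0.13 (limma, adjusted p = 0.000235). Within the title runs these differences were -1.59 and -2.41 with LIF, and -0.88 and -1.59 without.

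On withdrawal of LIF, Gstm2 rose by 0.83 ± 0.12 (SE) in the retaining lines (limma, adjusted p = 0.000251) and by 1.63 ± 0.15, 3.10-fold, in the lacking lines (limma, adjusted p = 0.000404), the 20th highest response there. The responses were 0.53 to 1.09 in the retaining lines and 1.29 to 2.07 in the lacking lines and did not overlap. Their difference was 0.80 ± 0.19 (limma, adjusted p = 0.0218). That call was lost without MBD3a (0.76, limma, adjusted p = 0.051), without coiled-coil-deleted (0.58, limma, adjusted p = 0.104), without the line as a block (limma, adjusted p = 0.0863) and with the title run as a covariate (0.76, limma, adjusted p = 0.0697).

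Gstm1, its neighbour on chromosome 3, had a log2 signal with LIF of 10.05 (EBRTcH3), 9.66 (MBD3a), 9.26 (MBD3b), 9.29 (MBD3c) and 9.73 (MBD-deleted). The lacking lines lay within 0.03 of each other, with the empty vector line at 8.80, coiled-coil-deleted at 8.83 and doubly deleted at 8.81. Without LIF the retaining lines were at 10.52, 9.95, 9.94, 9.63 and 10.45, and the lacking lines at 9.61, 9.32 and 9.22. The classes did not overlap in either condition, with a gap of 0.02 between MBD3c and the empty vector line without LIF.

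The difference for Gstm1 was -0.78 ± 0.17 (SE) with LIF, 1.72-fold lower in the lacking lines (limma, adjusted p = 0.0101), and -0.71 ± 0.20 without, 1.64-fold (limma, adjusted p = 0.0287). Within the title runs it was -0.77 and -0.91 with LIF, and -0.40 and -1.18 without. The call without LIF was lost without coiled-coil-deleted (-0.68, limma, adjusted p = 0.0961) or doubly deleted (-0.63, limma, adjusted p = 0.119). With the title run as a covariate it was lost too. Gstm1 rose on LIF withdrawal by 0.50 ± 0.09 in the retaining lines (limma, adjusted p = 0.00148) and by 0.57 ± 0.12 in the lacking lines (limma, adjusted p = 0.0302), the latter not without the line as a block (limma, adjusted p = 0.209) or without any 1 of the 3 lines (0.45 to 0.65). These responses differed by 0.07 ± 0.15 (limma, adjusted p = 0.825).

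The promoter of Gstm1, chr3:108017924-108018223 (minus strand), is shown for comparison with that of Gstm2, its close relative, since the size of the difference between the classes was not the same in both.
Gstm1: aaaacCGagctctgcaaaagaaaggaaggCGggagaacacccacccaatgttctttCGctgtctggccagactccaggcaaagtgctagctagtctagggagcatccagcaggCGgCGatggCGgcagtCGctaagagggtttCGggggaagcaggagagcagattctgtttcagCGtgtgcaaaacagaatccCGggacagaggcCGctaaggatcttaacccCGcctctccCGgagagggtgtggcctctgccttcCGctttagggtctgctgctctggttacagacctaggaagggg
It held 14 CG pairs against 3 in the Gstm2 window. RefSeq has a second annotated start of Gstm1, whose window (chr3:108017769-108018068) held 8. The mu class genes are similar in sequence and the probe sequences were not used here, so signal shared between them was not tested.

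All 7 mu class genes lie in a row on chromosome 3, in the order Gstm5, Gstm7, Gstm6, Gstm3, Gstm2, Gstm1 and Gstm4. With LIF, the difference between the classes passed for Gstm2 and Gstm1, and for the other 5 it was -0.29 (Gstm3) to -0.03 (Gstm4) on the log2 scale. The SE of this difference was 0.31 for Gstm3, 0.32 for Gstm5 and 0.34 for Gstm6, against 0.17 for Gstm1. A difference of the size seen in Gstm1 was thus less well resolved for those genes. Without LIF it passed for Gstm5 (-1.79 ± 0.12, limma, adjusted p = 1.36e-05), Gstm3 (-1.08 ± 0.17, limma, adjusted p = 0.00192) and Gstm4 (-0.42 ± 0.11, limma, adjusted p = 0.0205) as well as for Gstm2 and Gstm1. Each of the 7 genes rose in the retaining lines, by 0.26 (Gstm4) to 1.77 (Gstm5), where 21.3% of all genes rose. In the lacking lines Gstm2, Gstm1 and Gstm7 (0.40, limma, adjusted p = 0.0442) rose, while Gstm5 was at 0.07 ± 0.24 (limma, adjusted p = 0.937). Of all genes 1.71% rose there, and 6.48% were lower in the lacking than in the retaining lines with LIF and 12.4% without.

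**Figure D3:**
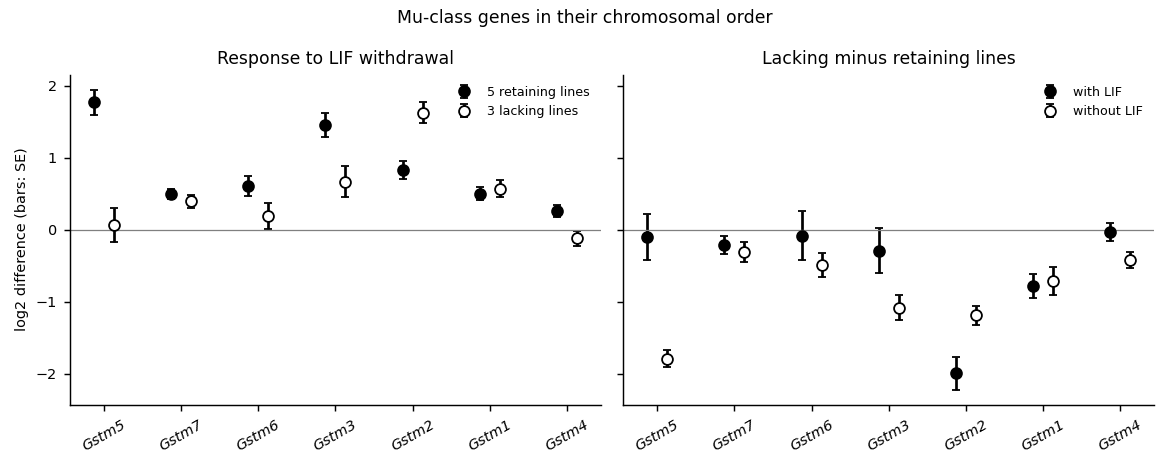
Log2 differences (y axis) for the 7 mu class genes in their order on chromosome 3 (x axis, not to scale); bars are the SE from limma. With LIF, the difference between the classes reached -1.99 at Gstm2 and -0.78 at Gstm1, while the other genes lay between -0.29 and -0.03.

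Gsta4 encodes an alpha class transferase with high activity towards 4-hydroxynonenal, a product of lipid peroxidation. With LIF its log2 signal was 11.92 (EBRTcH3), 11.84 (MBD3a), 11.82 (MBD3b), 11.79 (MBD3c) and 11.77 (MBD-deleted), and 11.49, 11.47 and 11.80 in the empty vector, coiled-coil-deleted and doubly deleted lines. Without LIF it was 11.23, 11.27, 11.48, 11.30 and 11.84 in the retaining lines, and 11.71, 11.74 and 11.70 in the lacking lines. The signal was lower without LIF in 4 of 5 retaining lines, and MBD-deleted was the exception and the highest of all lines without LIF.

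In the retaining lines Gsta4 fell by 0.40 on the log2 scale, a response of -0.40 ± 0.11 (SE; limma, adjusted p = 0.0135). This was lost without EBRTcH3 (-0.33, limma, adjusted p = 0.0568) or MBD3a (-0.36, limma, adjusted p = 0.0534), and MBD-deleted, the single retaining line of titles 15 to 20, was at 0.07 where titles 1 to 10 gave -0.52. The lacking lines were at 0.13 (limma, adjusted p = 0.754), and the difference of the responses, 0.53 ± 0.18, did not pass (limma, adjusted p = 0.0788). It did pass without the line as a block (limma, adjusted p = 0.048), with the block as a random effect (limma, adjusted p = 0.0401), with arrays centred on their medians (0.66, limma, adjusted p = 0.0349), with array weights and without MBD-deleted. The classes did not differ past the threshold with LIF (-0.24, limma, adjusted p = 0.159) or without (0.29, limma, adjusted p = 0.16).

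**Figure D4:**
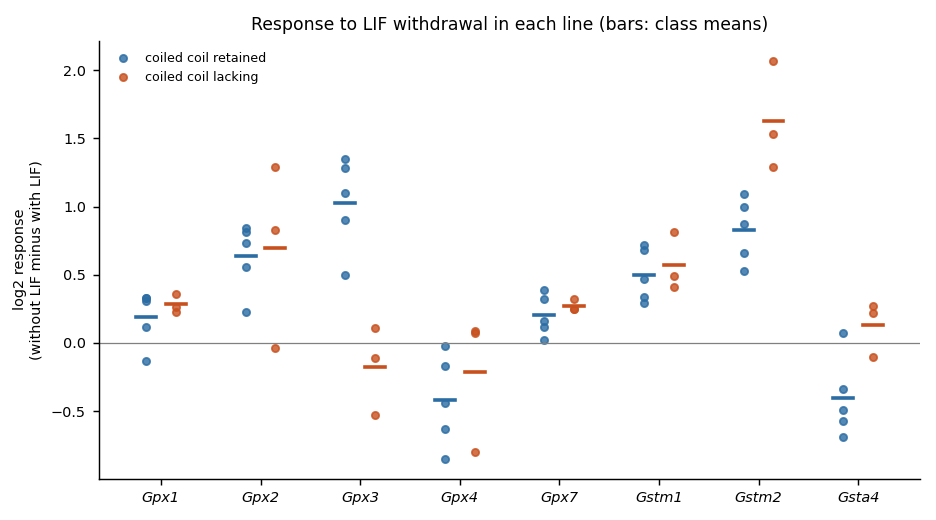
Response to LIF withdrawal of each line (y axis, log2 signal without LIF minus with LIF) for each measured gene (x axis); points are lines, blue retaining and orange lacking the coiled coil, and bars are class means. The responses of Gpx3 were 0.50 to 1.35 in the retaining and -0.53 to 0.11 in the lacking lines, and those of Gstm2 0.53 to 1.09 and 1.29 to 2.07.

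Counts over the 8 measured members are set here beside the share of all 22872 tested genes that passed at an adjusted p under 0.05 in limma. LIF withdrawal over all lines raised 5 members (Gpx1, Gpx2, Gpx7, Gstm1, Gstm2) and lowered 0, where 25.0% of all genes passed, 15.1% higher and 9.89% lower. Among the retaining lines 4 members rose and 2 fell, against 35.8% of all genes (21.3% higher, 14.5% lower). The lacking lines had 2 members that rose and 0 that fell, against 2.93% (1.71% higher, 1.22% lower). The difference of responses passed upwards for Gstm2 and downwards for Gpx3, against 12.1% (4.17% upwards, 7.9% downwards). With LIF, 1 member was higher and 2 were lower in the lacking lines, against 14.1% (7.65% higher, 6.48% lower). Without LIF, 1 member was higher and 4 were lower, against 20.9% (8.55% higher, 12.4% lower).

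The ranges of the classes did not overlap with LIF for 3 of 8 members, 1 above and 2 below the retaining lines, where 20.2% of all tested genes showed this (11.8% above, 8.43% below). Without LIF this held for 5 of 8, with 2 above and 3 below, against 26.6% (11.9% above, 14.7% below). The responses did not overlap for 2 of 8, with 1 above and 1 below, against 18.4% (6.82% above, 11.5% below). The median difference over the 8 members was -0.08 with LIF and -0.10 without on the log2 scale, where that of all genes was 0.05 and 0.01. The median response over all lines was 0.38 for the members and 0.02 for all genes.

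Other genes of the pathway were followed in 6 lists. Of 3 further glutathione peroxidase genes 2 were tested. Gpx8, a peroxidase of the endoplasmic reticulum like Gpx7, rose in the retaining lines by 1.14 ± 0.14 (SE; limma, adjusted p = 0.000103). It was lower in the lacking lines with LIF (-1.13 ± 0.11, limma, adjusted p = 0.000147) and without (-1.82 ± 0.23, limma, adjusted p = 0.000464). Gpx6 rose in the lacking lines by 0.58 ± 0.11 (limma, adjusted p = 0.0182), with group means of 4.51 to 5.09 that lie near the array median.

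Of 24 further glutathione transferase genes 21 were tested. On LIF withdrawal 11 rose and 2 fell in the retaining lines, where 21.3% of all genes rose and 14.5% fell, with a median response of 0.26 against 0.04 for all genes. In the lacking lines 2 rose and 0 fell, against 1.71% and 1.22% of all genes, with a median of 0.07. The difference of responses passed upwards for 1 and downwards for 5 of the 21, against 4.17% and 7.9% of all genes. Gstk1, the kappa class enzyme of mitochondria and peroxisomes, rose in the retaining lines from a mean log2 signal of 5.20 ± 0.47 (SD, n = 5) to 7.70 ± 0.34. The lacking lines started at 7.16 ± 0.39 (SD, n = 3) and were at 7.31 ± 0.23 without LIF, and the responses differed by -2.36 ± 0.28 (SE; limma, adjusted p = 0.000546). Gsta3, an alpha class enzyme, had a mean of 6.06 in both classes with LIF and went to 5.73 ± 0.16 in the retaining and 7.40 ± 0.18 in the lacking lines, so that the responses differed by 1.67 ± 0.16 (limma, adjusted p = 0.000167).

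Of 21 genes of glutathione synthesis, recycling and breakdown 19 were tested. The retaining lines had 2 that rose and 5 that fell (median -0.12), where 35.8% of all genes passed, and in the lacking lines 0 rose and 2 fell (median -0.03), where 2.93% passed. The cystine importer gene Slc7a11 fell by 1.39 on the log2 scale in the retaining lines, Cth, which makes cysteine from cystathionine, fell by 1.33, and Gss, glutathione synthetase, fell by 0.44. The glutathione-degrading enzyme Chac1 fell by 2.19, and Glrx, a glutaredoxin, rose by 1.72 ± 0.27 (limma, adjusted p = 0.000512). Chac1 fell in the lacking lines too (-1.66 ± 0.28, limma, adjusted p = 0.012), while Slc7a11 did not pass there (-0.78 ± 0.19, limma, adjusted p = 0.0584). The responses of the classes differed past the threshold for Cth and Gss, and not for Chac1, Slc7a11 or Glrx (limma, adjusted p = 0.395, 0.139 and 0.144). Gss was lower in the lacking lines with LIF (-1.14 ± 0.13, limma, adjusted p = 0.000282) and without (-0.42 ± 0.12, limma, adjusted p = 0.0353). Cth was lower there with LIF (-0.78 ± 0.18, limma, adjusted p = 0.0135) and higher without (0.62 ± 0.16, limma, adjusted p = 0.0184).

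Of 23 regulators and targets of NRF2 21 were tested, and 4 rose and 3 fell in the retaining lines (median 0.06, with 35.8% of all genes passing), 2 rose and 0 fell in the lacking lines (median 0.05, with 2.93%). Between the classes 2 were higher and 1 lower in the lacking lines with LIF, against 14.1% of all genes, and 4 higher and 2 lower without, against 20.9%. Nqo1, a quinone reductase, was 1.04 ± 0.13 higher in the lacking lines without LIF (limma, adjusted p = 0.000391), where Cbr3, a carbonyl reductase, was lower (-0.78 ± 0.15, limma, adjusted p = 0.00502). Ugdh, which makes UDP-glucuronate, rose in the lacking lines by 0.67 ± 0.11 (limma, adjusted p = 0.00915), while the exporter Abcc1 rose in the retaining lines by 0.67 ± 0.10 (limma, adjusted p = 0.000321). The transporter Abcc4 and the autophagy receptor Sqstm1 each had a response of -0.68 in the retaining lines (limma, adjusted p = 0.0116 and 0.000506).

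Of 15 further enzymes of peroxide and superoxide removal and their partners 12 were tested, and 5 rose and 3 fell in the retaining lines (median 0.17, with 35.8% of all genes passing), 0 rose and 1 fell in the lacking lines (median 0.02, with 2.93%). Prdx4, the peroxiredoxin of the endoplasmic reticulum, rose in the retaining lines by 0.80 ± 0.09 (limma, adjusted p = 6.38e-05) and was at 0.07 ± 0.12 in the lacking lines. The mitochondrial superoxide dismutase Sod2 fell in the retaining lines by 1.03 on the log2 scale (limma, adjusted p = 8.05e-06), and Txnip, which binds thioredoxin, fell by 1.67 (limma, adjusted p = 1.78e-05). Txnip fell in the lacking lines too, by 2.28 (limma, adjusted p = 0.000395), and was lower there than in the retaining lines with LIF (-1.48 ± 0.26, limma, adjusted p = 0.0035) and without (-2.09 ± 0.15, limma, adjusted p = 1.67e-05).

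The 18 genes of selenoprotein synthesis and other selenoproteins were all tested, and 9 rose and 2 fell in the retaining lines (median 0.25, with 35.8% of all genes passing), 1 rose and 0 fell in the lacking lines (median 0.09, with 2.93%). Selenon, a selenoprotein of the endoplasmic reticulum, rose in the retaining lines by 1.88 ± 0.12 (SE; limma, adjusted p = 7.51e-07) and was at 0.18 ± 0.15 in the lacking lines; the responses differed by -1.70 ± 0.19 (limma, adjusted p = 0.000369). Selenop, which carries selenium in plasma, rose in both classes, by 1.52 ± 0.14 (limma, adjusted p = 1.01e-05) and 0.78 ± 0.18 (limma, adjusted p = 0.0405). Selenoi rose in the retaining lines by 1.09 ± 0.09 (limma, adjusted p = 6.56e-06).

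For the 4 members that varied most, the tested genes with the nearest profile over the 16 arrays were found by the root mean square difference of the log2 signals after each gene was centred on its mean. This is a description, and the arrays compared share their lines. Nearest to Gpx2, whose SD over the arrays was 1.57, were the protease gene Htra1 (0.58), Ccdc152 (0.59) and Notum (0.60), which encodes a Wnt-inactivating deacylase; Ccdc152 had a mean log2 signal of 2.50 in the retaining lines with LIF, below the array median. Nearest to Gstm2 (SD 1.05) were the actin-bundling gene Pls3 (0.41), the polycomb gene Sfmbt2 (0.45) and Des (0.48), which encodes desmin. Nearest to Gstm1 (SD 0.54) were Mapk12 (0.21), Nabp2 (0.22) and Rab18 (0.24). Nearest to Gpx3 (SD 0.50) were Ncs1 (0.21), Brdt (0.21) and Pld2 (0.23).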

How the data were processed

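Total RNA of 8 mouse ESC lines in 2 conditions was hybridized to 16 Affymetrix arrays. Values were deposited on the log2 scale. The submitters' processing notes name RMA and the R package affy, without versions; the labels name no genome build. RMA brings all arrays to a common distribution, so values show change relative to the other genes of an array. Precision is limited by 1 array per line and condition.

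Probe sets with a single gene symbol were kept (30439 of 65770), symbols were updated through a reference table of assembly GRCm38.p6, and the probe set with the highest mean was taken per gene. Genes above the array's 40th percentile on at least 3 arrays were tested (22872). R 4.3.3 and limma 3.58.1 served for the 6 comparisons, with Benjamini-Hochberg adjustment over all tested genes and a threshold of 0.05 on the adjusted p. Of the fits, that of the difference of responses was tested on simulated data, which were drawn without differences between lines. The line was a block in the fits of LIF withdrawal, a pairing that comes from the labels, which give both arrays of a line the same cell line; deviations of a line's arrays from their class means correlated by -0.05 to 0.28 over genes.

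The members and gene lists were chosen with earlier results of these data known. All members are named. Of the lists, up to 3 genes with the largest difference of responses and up to 3 with the largest response in the retaining lines were taken among those that passed, and the text describes a part of their values. The 3 nearest profiles are given for the 4 members with the largest SD. The alternatives were the block, the title run, filters, scaling, array weights and leaving out each line.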

Additional observations from a re-analysis of the deposited data

Results flagged for a closer look

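Lines lacking and lines retaining the coiled coil differed in how 2 members and 14 named genes of the lists responded to LIF withdrawal, by limma's test of the difference itself. Differences are lacking minus retaining, on the log2 scale. For Gpx3 it was -1.20 and for Gstm2 0.80. The transferase genes Gstk1 (-2.36) and Gstm5 (-1.70) responded less in the lacking lines, and Gsta3 (1.67) and the peroxidase gene Gpx6 (0.50) more. Among synthesis genes the difference was 1.40 for Cth and 0.73 for Gss, both of which fell in the retaining lines. Among NRF2 targets it was 0.83 for Ugdh, 0.66 for Nqo1 and -0.59 for Abcc1. It was -0.73 for Prdx4 and 0.58 for Sod2, and among selenoprotein genes -1.70 for Selenon, -0.60 for Selenoi and -0.50 for Selenoo. These genes were picked because they passed, so their number is no result. In the 24 groups of 5 retaining lines (8 members with LIF, without LIF and in their response), 0 had a line that stood apart by Dixon's test; groups of 3 were not tested.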

How the results depend on the processing

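Counts of members that passed moved with the setting. The main counts were 5 (all lines), 6 (retaining), 2 (lacking), 2 (difference of responses), 3 (classes with LIF) and 5 (classes without LIF). Leaving out each line in turn gave 3 to 6, 4 to 6, 1 to 2, 1 to 3, 3 to 4 and 3 to 6. Without the line as a block (no replicate block) the lacking lines gave 1, and with the block as a random effect also 1; the pairing moved no other count by over 1.5 times, but in both of these fits Gsta4 replaced Gstm2 among the 2 differences of responses, and Gpx3 and Gpx4 passed over all lines. With the title run as a covariate the difference of responses gave 1 and the classes without LIF 3. Within titles 1 to 10 (5 lines, 1 of them lacking) the lacking lines gave 0, the difference of responses 0 and the classes without LIF 2; at an unadjusted p under 0.05 limma gave 4, 4 and 3, and of all 22504 genes tested there 85, 753 and 1857 passed. Within titles 15 to 20 (3 lines) each of the 6 counts was 0, with 4, 3, 2, 1, 3 and 4 members at an unadjusted p under 0.05; of all 22125 genes 18 passed over all lines and 0 in the other 5 comparisons, so these counts say nothing of the members. Array weights gave 5 for the classes with LIF, where the count over all genes went from 3233 to 5373. Of 1051 values for single genes, 888 kept direction and call, 161 lost the call and 2 reversed, both in the retaining line of titles 15 to 20: Gsta4 (0.07) and Abcc4 (0.21). These values cover only results that passed in the main fit, so calls gained in other settings are not among them. The causes were not tested beyond the fewer lines of such fits. Centring arrays on their medians shifted the response of the retaining lines by -0.13, the difference of responses by 0.13 and the classes without LIF by 0.10, which reversed no member's direction in a comparison that passed ended the calls of Gpx1 and Gpx7 over all lines and of Gpx4 between the classes without LIF, and added Gpx4 over all lines and between the classes with LIF, Gpx1 between the classes without LIF, and Gsta4 in the difference of responses.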
